A study of Mus musculus with 9 samples.

Results

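The genes described here are the semaphorins of classes 3 to 7, the plexins, the ephrins and Eph receptors, the SLIT ligands and ROBO receptors, and the netrins and UNC5 receptors, in mouse brain endothelial cells held under 3 kinds of flow. They were selected by gene name and a minimum count. This rule uses no difference between groups, but it was set with earlier results of these data known. As each group has 3 libraries, a gene could be kept through a single group. Epha3 and Epha7 were kept only through PSS and Sema5a only through HSS, so differences of these genes from that group are not independent of the rule. Of the 31232 genes in the count table, 64 carry a name of these families. At least 10 counts in at least 3 of the 9 libraries were found for 52 of the 64. All 52 also passed the expression filter that left 15774 genes for testing. The 12 named genes that were not kept were Efna4, Epha5, Epha6, Epha8, Epha10, Ephb1, Ephb3, Ntn5, Plxna4, Sema5b, Slit3 and Unc5c. Of these, 9 had at most 11 counts in any library, but Vortex replicate 2 had 208 counts of Slit3, 98 of Plxna4 and 85 of Ephb1. In the other 8 libraries those 3 genes had at most 14, 2 and 7 counts.

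The cells were bEnd.3, an immortalised endothelial line from mouse brain, grown on glass coverslips in a parallel-plate chamber, and all 9 libraries come from this 1 line. The PSS group received laminar flow at 10 dyne/cm2 and stands in the study for normal flow in brain arteries. The HSS group received laminar flow at 20 dyne/cm2, standing for the branch points where an intracranial aneurysm begins, and the Vortex group a swirling flow at 0.5 to 2 dyne/cm2, standing for the sac of a grown aneurysm. Each group had 3 libraries of polyadenylated RNA, no group without flow was analysed here, and the labels name no duration of flow. The protocol calls the RNA that was sequenced mixed and does not say whether the replicates were separate cultures, so every p-value below measures the spread between these libraries, which may be technical.

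Guidance molecules were first described as cues for growing axons, and endothelial cells use the same families. Secreted class 3 semaphorins bind neuropilins and plexins and mostly repel or retract cells, with Sema3e binding Plxnd1 directly. Ephrins and Eph receptors are both anchored in membranes and signal in both directions on contact, and Efnb2 and Ephb4 are the classical markers of arteries and veins. SLIT proteins bind ROBO receptors, of which Robo4 is largely restricted to endothelium, and netrins bind UNC5 receptors, of which Unc5b is the vascular member.

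Sema3d, Sema3e and Sema3c, whose levels changed between the laminar flows in opposite directions, lie on mouse chromosome 5 together with Sema3a. In the order Sema3d, Sema3a, Sema3e, Sema3c, there are 0, 3 and 15 protein-coding genes between neighbours in RefSeq. The upstream sequences of Sema3d, Sema3e and Sema3c are shown because these 3 are the class 3 genes that passed in HSS against PSS, as described below. Each is the stretch before the RefSeq start on the plus strand of GRCm38.p6, of 250 bases for Sema3e and Sema3c and of 245 for Sema3d, where the annotated gene begins inside the window. They span chr5:12382916-12383160 for Sema3d, chr5:14025026-14025275 for Sema3e and chr5:17574566-17574815 for Sema3c. Capitals mark matches, on either strand, to the motif letters CCACCC (KLF) and CCGGAA (ETS).
Sema3d: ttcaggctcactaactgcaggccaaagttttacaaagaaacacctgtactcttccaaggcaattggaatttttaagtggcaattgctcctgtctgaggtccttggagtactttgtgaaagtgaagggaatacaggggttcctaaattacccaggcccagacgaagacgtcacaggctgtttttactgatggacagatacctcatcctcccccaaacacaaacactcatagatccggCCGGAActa
Sema3e: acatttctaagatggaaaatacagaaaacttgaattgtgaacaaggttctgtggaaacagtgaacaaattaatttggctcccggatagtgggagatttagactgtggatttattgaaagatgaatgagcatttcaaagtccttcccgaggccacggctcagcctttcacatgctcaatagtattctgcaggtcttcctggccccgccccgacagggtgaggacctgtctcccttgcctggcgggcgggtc
Sema3c: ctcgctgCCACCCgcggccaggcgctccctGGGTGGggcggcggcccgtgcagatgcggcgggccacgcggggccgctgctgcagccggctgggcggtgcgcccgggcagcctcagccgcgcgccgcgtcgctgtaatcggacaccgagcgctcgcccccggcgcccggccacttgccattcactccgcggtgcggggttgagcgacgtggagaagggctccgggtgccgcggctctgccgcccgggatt
The Sema3c window held 2 KLF matches, the Sema3d window 1 ETS match, and the Sema3e window no match to any of the 4 motifs searched. The others were TGANTCA (AP-1) and CATTCC (TEAD), and matches of different motifs were allowed to overlap. RefSeq windows were found for 45 of the 52 genes, 61 windows in all. CCACCC occurred in 52.5% of them against 28.1% of all 32851 windows of the same length, beside a median GC content of 64.4% against 52.4%, whose part in that difference was not tested. For CCGGAA the shares were 9.84% and 12.03%, for TGANTCA 4.92% and 6.75%, and for CATTCC 13.1% and 12.6%. A match is only a match of letters and says nothing of binding.

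The libraries held 17407217 to 22965802 counts. Values below are in CPM, counts relative to the TMM-scaled total of the library, given in the order of replicates 1, 2 and 3. The HSS libraries lay close together, the PSS libraries less so, and Vortex replicate 2 stood apart from all others. It had 1456 CPM of the endothelial junction gene Pecam1, against 1.77 and 55.1 in the other Vortex libraries, 12.4 to 14.2 in PSS and 1.08 to 1.68 in HSS. The summed level of 13 endothelial markers was 2807 to 3614 CPM in PSS, 955 to 985 in HSS and 1383 to 8134 in Vortex, the highest in replicate 2. All 13 had at least 10 counts in every PSS and Vortex library and 11 did so in HSS, where Cldn5, a tight junction gene, had 2 counts in replicate 1 and 0 in the others. The summed level of 8 pericyte and fibroblast markers was 289 to 363 CPM in PSS, 352 to 369 in HSS and 61.2 to 657 in Vortex, the lowest in replicate 2. Of 6 leukocyte markers the sum was 6.82 to 7.72, 22.1 to 25.4 and 22.1 to 56.0 CPM, with Ptprc, which defines leukocytes, at 0 or 1 count in every library. Single markers did not all follow these sums: Flt1, a VEGF receptor, was at 178 to 258 CPM in PSS, 329 to 338 in HSS and 447 to 485 in Vortex. Among the fibroblast markers, Pdgfra was at 467 and 332 CPM in Vortex replicates 1 and 3 and 21.4 in replicate 2, against 68.0 to 76.4 in PSS and HSS, and Col1a1 was at 124, 34.3 and 165 CPM in Vortex, against 189 to 263 in PSS and HSS. The endothelial sum was lower in each HSS than in each PSS library and the leukocyte sum lower in PSS than in both other groups, while the endothelial and fibroblast sums in Vortex spanned those of PSS. The part of these marker levels in the results below was not tested. In RNA from whole cultures, fewer cells of a kind and less RNA per cell cannot be told apart. Because the spread of each gene is estimated over all 9 libraries, Vortex replicate 2 also bears on HSS against PSS, so results are given with and without it.

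Between the laminar flows, 15 of the 52 guidance genes changed at an adjusted p under 0.05 in HSS against PSS, 7 of them higher and 8 lower in HSS. Higher were Sema3c, Sema3e, Sema4a, Sema4b, Plxna1, Plxnb2 and Ntn1. Lower were Sema3d, Sema6a, Plxnc1, Efna1, Efna2, Epha3, Epha7 and Ntn4, of which Epha3 and Epha7 were kept only through PSS. The 15 make up 28.8% of the guidance genes, against 7.87% of all tested genes, of which 4.18% were higher and 3.70% lower. The median log2 fold change of the 52 genes was -0.09, against -0.005 over all tested genes. With Vortex replicate 2 left out, all 15 kept their call and 36 passed, 15 higher and 21 lower, against 29.1% of all genes (15.4% higher and 13.7% lower). In a fit of the 6 PSS and HSS libraries alone, 35 of 49 passed, among them the same 15, against 40.8% of all genes. For 44 of the 52 genes the PSS and HSS libraries did not overlap, 20 of them higher in HSS and 24 lower, against 56.2% of all genes. Leaving out 1 HSS library reduced the 15 to 3 whichever was left out, and over all genes the share called was then 1.83%, 1.84% and 1.74% without HSS replicates 1, 2 and 3. Leaving out PSS replicate 1, 2 or 3 left 4, 7 and 5, against 1.92%, 2.84% and 3.11% of all genes. Without Vortex replicate 1 or 3, 19 and 16 passed, against 12.4% and 6.93% of all genes. Sema3d, Sema4b and Sema6a passed in each of the 9 fits that left out 1 library.

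Under vortex flow, 9 guidance genes changed against PSS. Epha2, Plxna1, Plxnb2, Sema3e, Sema4b and Sema4d were higher, and Sema3d, Sema6a and Epha3, which was kept only through PSS, lower. This is 17.3% of the 52, against 13.4% of all tested genes (8.33% higher and 5.03% lower), a share near the background. The median log2 fold change was 0.26, against 0.11 over all genes. When Vortex replicate 2 was left out all 9 kept their call and 30 passed, 13 higher and 17 lower, against 36.3% of all genes (19.7% higher and 16.6% lower), and the median of the 52 was then -0.17. In a fit of the PSS and Vortex libraries alone only Sema3d passed, of 50 tested, against 0.488% of all genes. The PSS and Vortex libraries did not overlap for 16 of the 52 genes, 9 higher and 7 lower in Vortex, against 30.0% of all genes. Without PSS replicate 1, 2 or 3 there were 2, 4 and 3 calls, against 3.18%, 5.58% and 6.62% of all genes. Without any 1 HSS library there were 4, against 6.81% to 6.86% of all genes, and without Vortex replicate 1 or 3 there were 11 and 5, against 17.3% and 9.86%. Sema3d and Sema4b passed in each of the 9 fits that left out 1 library.

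Compared directly, the Vortex and HSS groups differed in 3 guidance genes: Efna1 and Plxnc1 were higher and Sema3d lower in Vortex. That is 5.77% of the 52, against 7.04% of all tested genes (4.37% higher and 2.67% lower), with a median log2 fold change of 0.26 against 0.10. Without Vortex replicate 2 the 3 kept their call and 13 passed, 8 higher and 5 lower, against 23.9% of all genes (13.9% higher and 10.0% lower). The median of the 52 was then -0.02, against 0.03 over all genes, and 8 genes had turned from positive to negative. In a fit of the HSS and Vortex libraries alone, 0 of 48 passed in edgeR, against 0.438% of all genes. At an unadjusted p under 0.05 in that fit there were 14 of the 48, a count for which no share over all genes is given. The libraries of both groups did not overlap for 21 of the 52, 12 higher and 9 lower in Vortex, against 36.4% of all genes. Leaving out any PSS library left 1 call, against 2.03%, 3.60% and 6.58% of all genes, and leaving out any HSS library 0, against 0.154% to 0.159%. Without Vortex replicate 1 or 3, 15 and 4 passed, against 15.0% and 5.89% of all genes. The comparisons of HSS and of Vortex with PSS share the PSS libraries, so values of both are set side by side below and no overlap between them is counted.

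**Figure D1:**
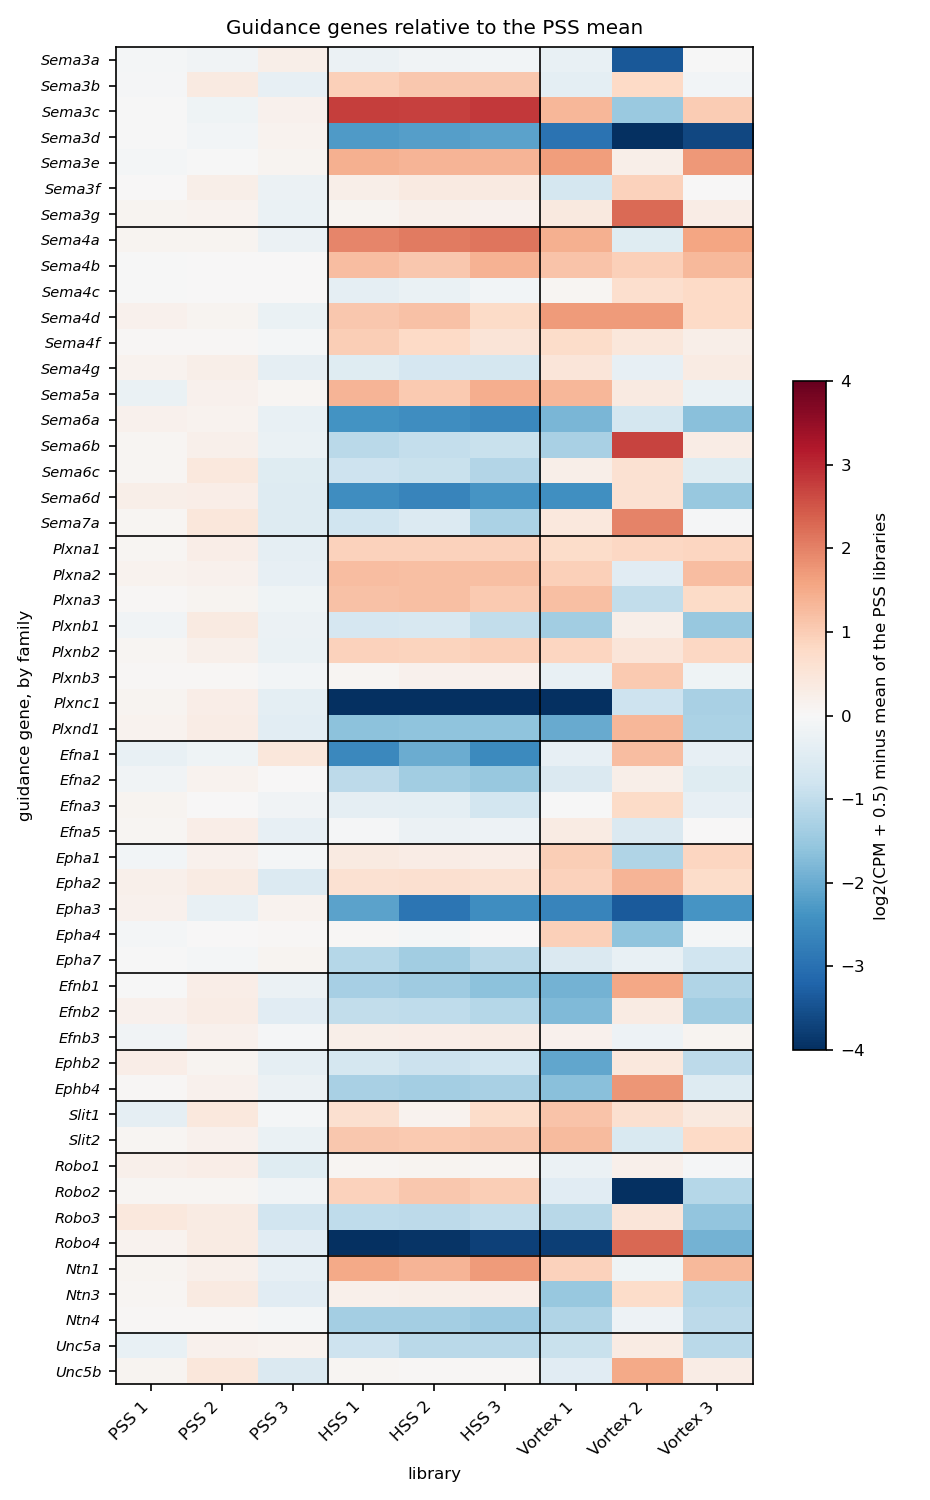
Level of each of the 52 guidance genes (rows, grouped by family) in each of the 9 libraries (columns), as log2(CPM + 0.5) minus the mean of the 3 PSS libraries, with colours ending at -4 and 4. Sema3c is deep red in all HSS libraries, Sema3d is blue in all HSS and Vortex libraries, and the column of Vortex replicate 2 differs from both other Vortex columns for Sema3a, Robo2, Robo4, Ephb4 and Plxnd1.

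Among the 7 class 3 semaphorins, the secreted members of the family, Sema3c and Sema3e rose and Sema3d fell in HSS against PSS, and 4 did not pass. Of all tested genes 7.87% were called in that comparison. Sema3c, a ligand of neuropilins and plexins needed for formation of the heart's outflow tract, was at 143, 128 and 161 CPM in PSS, 984, 962 and 1029 CPM in HSS and 358, 51.4 and 289 CPM in Vortex. All HSS values were far above all PSS values, while in Vortex replicates 1 and 3 were above PSS and replicate 2 below it. Sema3c was 6.90-fold higher in HSS than in PSS (log2 fold change 2.79 ± 0.57, adjusted p = 0.0201). In Vortex it did not pass against PSS (0.70 ± 0.53, adjusted p = 0.425) or against HSS (-2.09 ± 0.55, adjusted p = 0.0529), and without Vortex replicate 2 its log2 fold changes were 1.17 and -1.62, both past the threshold.

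Sema3d, a related secreted semaphorin that guides endothelial cells in the forming pulmonary veins, moved the other way. It stood at 97.4, 91.1 and 108 CPM in PSS, 20.3, 21.1 and 22.0 CPM in HSS and 12.4, 4.15 and 7.50 CPM in Vortex, with no overlap between any of the 3 groups. Its level was 4.68-fold lower in HSS than in PSS (log2 fold change -2.23 ± 0.34, adjusted p = 0.00631) and 12.4-fold lower in Vortex than in PSS (-3.63 ± 0.36, adjusted p = 0.00220). Vortex was also below HSS (-1.40 ± 0.34, adjusted p = 0.0398). With all 9 libraries, Sema3d was the only guidance gene to pass in all 3 comparisons, which share libraries. When Vortex replicate 2 was left out, others did so too, Sema3c and Robo2 among them.

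Sema3e, the ligand of Plxnd1, was at 33.8, 35.8 and 38.7 CPM in PSS, 98.4, 93.6 and 93.5 CPM in HSS and 116, 42.6 and 122 CPM in Vortex. Each HSS and Vortex library was above each PSS library, though Vortex replicate 2 only slightly. It was 2.63-fold higher in HSS (log2 fold change 1.40 ± 0.34, adjusted p = 0.0411) and 2.59-fold higher in Vortex (1.37 ± 0.34, adjusted p = 0.0316) than in PSS, and Vortex and HSS differed by -0.02 ± 0.34. The neighbouring gene Sema3a, the best-known repellent of axons, was at 93.4, 90.0 and 117 CPM in PSS, 84.2, 90.3 and 92.7 CPM in HSS and 80.5, 9.00 and 98.1 CPM in Vortex. Apart from the low Vortex replicate 2 its libraries overlapped, and it passed in no comparison, with log2 fold changes of -0.17 ± 0.63 in HSS and -0.68 ± 0.63 in Vortex against PSS.

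Sema3f, which acts mainly through Nrp2, was at 51.5, 60.1 and 43.9 CPM in PSS, 60.6, 66.0 and 66.5 CPM in HSS and 31.7, 98.3 and 52.2 CPM in Vortex, and passed nowhere (log2 fold change 0.31 ± 0.35 in HSS and 0.23 ± 0.35 in Vortex). Sema3g, an endothelial semaphorin of arteries, was at 49.2, 49.2 and 37.8 CPM in PSS, 48.6, 51.6 and 51.2 CPM in HSS and 59.0, 217 and 55.4 CPM in Vortex. It was highest in Vortex replicate 2 and did not pass in HSS (0.15 ± 0.47) or Vortex (1.28 ± 0.48, adjusted p = 0.108) against PSS. Sema3b, at 2.33 to 7.36 CPM over the 9 libraries, was higher in every HSS than in every PSS library but did not pass (1.11 ± 0.38, adjusted p = 0.114). It passed when Vortex replicate 2 was left out.

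Leaving out any 1 of the 6 PSS and HSS libraries ended the calls of Sema3c (0.0713 to 0.0971 in adjusted p) and Sema3e (0.124 to 0.158) in HSS against PSS. For Sema3e in Vortex the call held only without Vortex replicate 2 (0.0625 to 0.123 with any other library left out). The call of Sema3d in Vortex against HSS was lost (0.0606 to 0.155) without any 1 PSS or HSS library and without Vortex replicate 3.

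Levels were compared between genes on the authors' FPKM, which divides by gene length. Summed over the class 3 genes, FPKM was 66.4 ± 0.484 (SD, n = 3) in PSS, 187 ± 5.17 in HSS and 78.9 ± 4.42 in Vortex. Sema3c made up 31.7% ± 2.87 of that sum in PSS and 75.9% ± 0.665 in HSS, and 56.0%, 8.91% and 48.0% in the Vortex libraries. Sema3d made up 18.1% ± 1.15 in PSS, 1.34% ± 0.0302 in HSS and 1.08% ± 0.506 in Vortex. The FPKM ratio of Sema3c to Sema3d was thus 1.75 ± 0.0495 in PSS, 56.5 ± 1.67 in HSS and 34.9, 14.9 and 46.4 in the Vortex libraries, with every HSS and Vortex value above every PSS value. Sema3g, at 15.8% of the sum in PSS and 6.08% in HSS, made up 59.0% in Vortex replicate 2 and 14.5% in both other Vortex libraries.

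**Figure D2:**
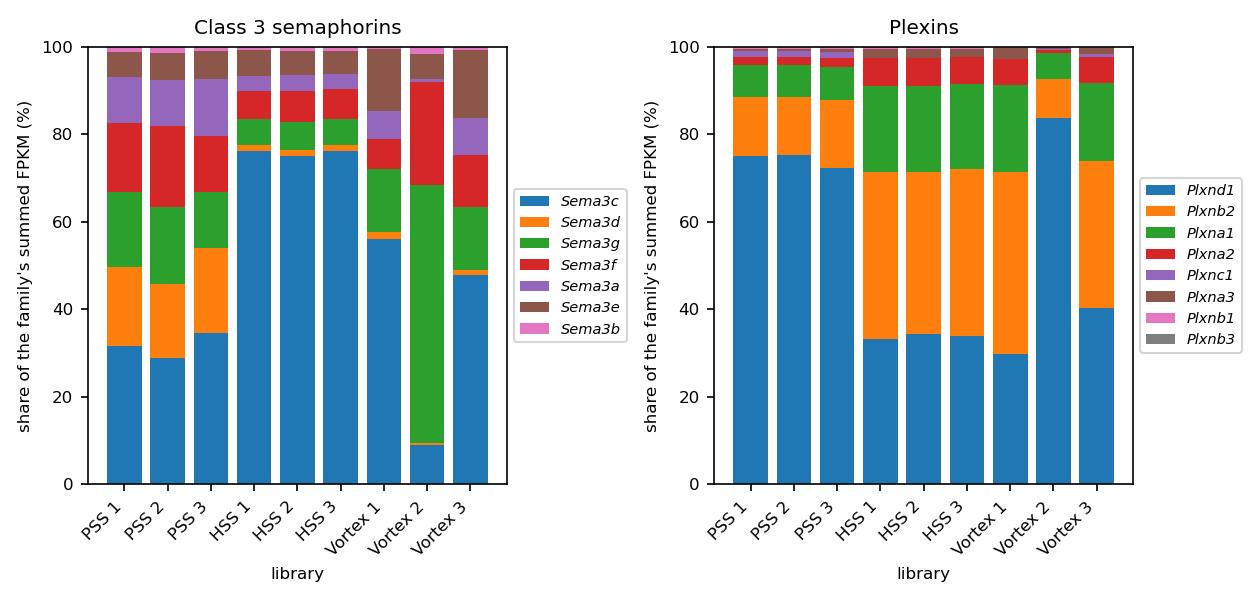
Share of each gene in the summed FPKM of its family in each library, for the class 3 semaphorins (left) and the plexins (right). The mean share of Sema3c is 31.7% in PSS and 75.9% in HSS, that of Plxnd1 is 74.2% and 33.8%, and Vortex replicate 2 is led by Sema3g (59.0%) and Plxnd1 (83.8%).

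Among the membrane-bound semaphorins of classes 4 to 7, 3 of 12 genes changed in HSS (2 higher, 1 lower) and 3 in Vortex (2 higher, 1 lower) against PSS. The shares of all tested genes called were 7.87% and 13.4%. Sema4b, a transmembrane class 4 semaphorin, was at 13.2, 13.6 and 13.6 CPM in PSS, 32.2, 29.2 and 35.9 CPM in HSS and 30.5, 26.7 and 34.1 CPM in Vortex. All 6 HSS and Vortex libraries exceeded the PSS libraries, which hardly differed among themselves. It was 2.40-fold higher in HSS (log2 fold change 1.27 ± 0.18, adjusted p = 0.00490) and 2.26-fold higher in Vortex (1.18 ± 0.18, adjusted p = 0.00590) than in PSS, and HSS and Vortex differed by -0.09 ± 0.18. Its call in both comparisons held in each fit without 1 library.

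Sema4a, a class 4 semaphorin with known roles on immune cells, was at 2.02, 1.99 and 1.47 CPM in PSS, 8.49, 9.36 and 9.68 CPM in HSS and 5.68, 1.14 and 6.47 CPM in Vortex. The HSS libraries were above all others, and Vortex replicate 2 was the lowest of the 9. It was 5.01-fold higher in HSS than in PSS (2.32 ± 0.54, adjusted p = 0.0335) and did not pass in Vortex (1.27 ± 0.53, adjusted p = 0.147). When Vortex replicate 2 was left out, Sema4a passed in Vortex against PSS too, at 1.73. Sema4d, which signals through Plxnb1 and promotes vessel growth, was low at 1.21, 1.12 and 0.758 CPM in PSS, 2.69, 2.92 and 2.10 CPM in HSS and 4.48, 4.43 and 2.12 CPM in Vortex. Its values in Vortex and in HSS all lay above those in PSS, and it passed in Vortex (3.55-fold, log2 fold change 1.83 ± 0.39, adjusted p = 0.0169) and not in HSS (1.31 ± 0.39, adjusted p = 0.0746). In HSS Sema4d passed when Vortex replicate 2 was left out, at 1.31.

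Sema6a, a transmembrane class 6 semaphorin that binds plexins of the A type, was at 27.1, 26.7 and 19.5 CPM in PSS, 4.20, 3.92 and 3.63 CPM in HSS and 6.43, 14.7 and 7.16 CPM in Vortex. The 3 groups did not overlap: PSS was highest, then Vortex, then HSS. It was 6.22-fold lower in HSS (-2.64 ± 0.35, adjusted p = 0.00383) and 2.58-fold lower in Vortex (-1.37 ± 0.33, adjusted p = 0.0273) than in PSS. Vortex against HSS did not pass (1.27 ± 0.33, adjusted p = 0.0529), but did so without Vortex replicate 2, at 0.79. Sema6d, another ligand of A-type plexins, ranged from 50.5 to 88.1 CPM in PSS, from 11.2 to 13.8 in HSS and from 12.8 to 110.1 in Vortex. Its groups did not overlap in HSS against PSS, but it did not pass (-2.58 ± 0.69, adjusted p = 0.0532). With Vortex replicate 2 left out Sema6d passed in HSS and in Vortex against PSS, at -2.58 and -1.97.

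Sema7a, a membrane-anchored semaphorin, was at 2.48, 3.41 and 1.47 CPM in PSS, 1.13, 1.46 and 0.684 CPM in HSS and 3.28, 10.8 and 2.22 CPM in Vortex. Each HSS library was below each PSS library, Vortex replicate 2 was highest, and no comparison passed (-1.16 ± 0.63, adjusted p = 0.314 in HSS and 1.15 ± 0.61, adjusted p = 0.240 in Vortex against PSS). Of the remaining class 4 to 7 genes, Sema4c, Sema4f, Sema4g, Sema5a, Sema6b and Sema6c, none passed in any comparison with all 9 libraries. Without Vortex replicate 2, 10 of the 12 passed in HSS against PSS (5 higher, 5 lower), against 29.1% of all genes. Log2 fold changes in that fit ranged from -2.64 for Sema6a to 2.73 for Sema5a, which had at most 25 counts in a library.

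The call of Sema4a in HSS was lost without any 1 PSS or HSS library (0.102 to 0.139). That of Sema4d in Vortex was lost without any 1 PSS library (0.0605 to 0.0659). Sema6a kept its call in HSS in each fit without 1 library, whereas in Vortex against PSS it was lost (0.0528 to 0.111) without any 1 PSS or HSS library and without Vortex replicate 3.

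**Figure D3:**
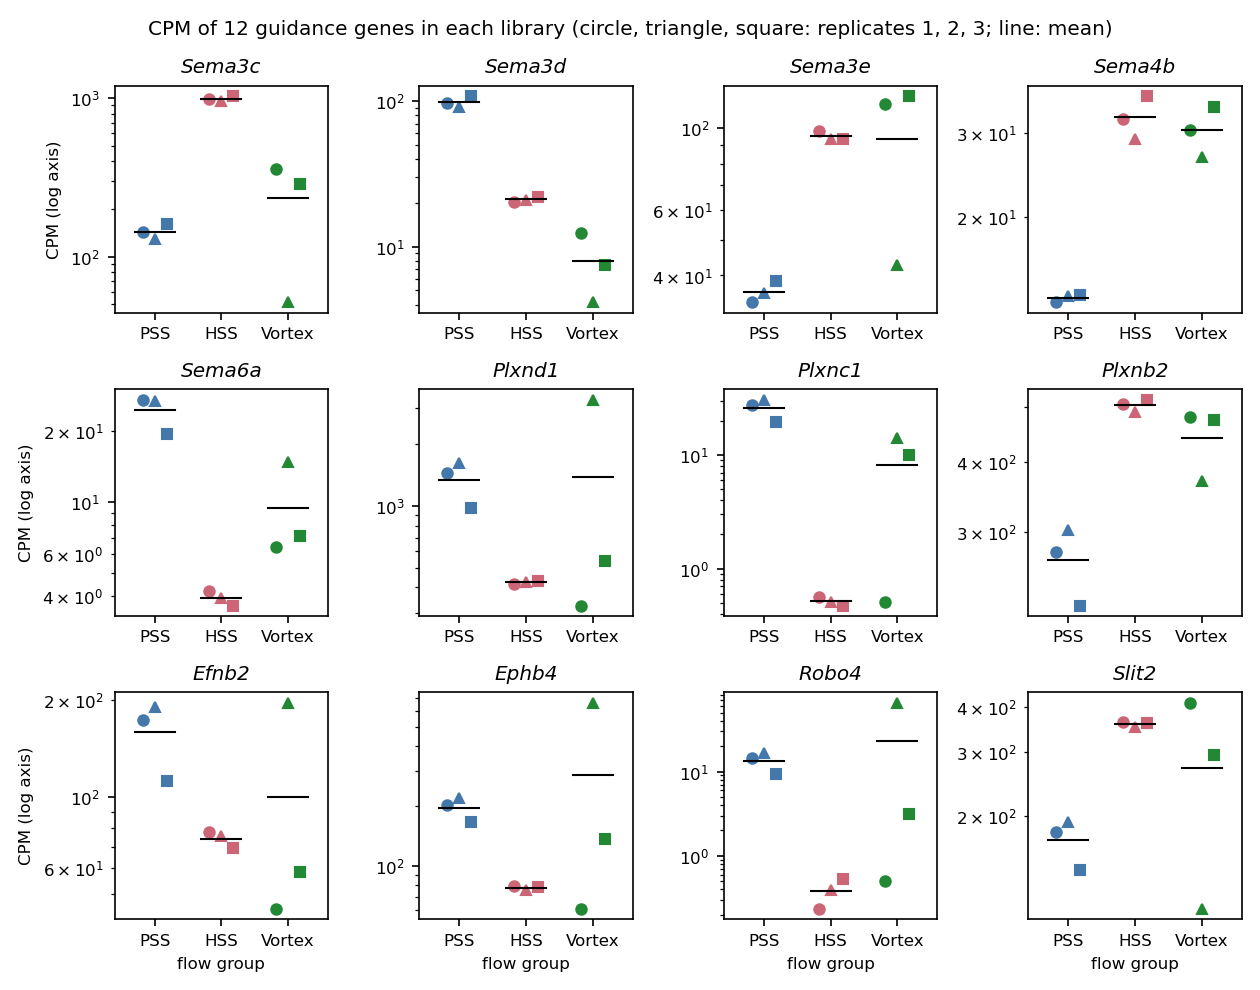
CPM in each library (log axes that differ between panels) of 12 guidance genes in PSS, HSS and Vortex, with circle, triangle and square for replicates 1, 2 and 3 and a line at the group mean. The HSS points lie together in most panels, and the Vortex triangle, replicate 2, is the highest of all 9 for Plxnd1 (3286 CPM), Ephb4 (662 CPM) and Robo4 (65.4 CPM) and the lowest for Sema3c (51.4 CPM), Sema3d (4.15 CPM) and Slit2 (111 CPM).

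Of the 8 plexins, the receptors of the semaphorins, Plxna1 and Plxnb2 rose in HSS and in Vortex against PSS, Plxnc1 fell in HSS, and 5 passed in neither. In these comparisons 7.87% and 13.4% of all tested genes were called. Plxna1, a partner of neuropilins in class 3 signalling, was at 171, 194 and 125 CPM in PSS, 307, 304 and 306 CPM in HSS and 271, 287 and 295 CPM in Vortex. PSS was below both other groups in every library, and the HSS libraries were nearly equal. It was 1.87-fold higher in HSS (0.90 ± 0.19, adjusted p = 0.0209) and 1.74-fold higher in Vortex (0.80 ± 0.19, adjusted p = 0.0240).

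Plxnb2, a receptor of class 4 semaphorins, was at 276, 302 and 221 CPM in PSS, 506, 491 and 516 CPM in HSS and 480.2, 369.8 and 474 CPM in Vortex. Again every HSS and Vortex library was above every PSS library. It was 1.89-fold higher in HSS (0.92 ± 0.18, adjusted p = 0.0170) and 1.65-fold higher in Vortex (0.73 ± 0.18, adjusted p = 0.0296). Plxna2 and Plxna3 were higher in each HSS than in each PSS library without passing (1.21 ± 0.37, adjusted p = 0.0846 and 1.17 ± 0.46, adjusted p = 0.158), and both passed in HSS and in Vortex against PSS when Vortex replicate 2 was left out.

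Plxnc1, the receptor of Sema7a, was at 27.7, 30.8 and 19.5 CPM in PSS, 0.566, 0.505 and 0.473 CPM in HSS and 0.505, 14.1 and 10.1 CPM in Vortex. It was near the detection limit in HSS, with 12, 9 and 9 counts, and in Vortex replicate 1, with 8 counts, but not in Vortex replicates 2 and 3. It was 49.9-fold lower in HSS than in PSS (-5.64 ± 0.97, adjusted p = 0.0106) and 15.8-fold higher in Vortex than in HSS (3.98 ± 0.93, adjusted p = 0.0371), although Vortex replicate 1 lay within the HSS range. Against PSS, its level in Vortex did not pass (-1.66 ± 0.78, adjusted p = 0.191), but did so without Vortex replicate 2, at -2.26.

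Plxnd1, the endothelial receptor of Sema3e, was the most abundant guidance gene in PSS, with an FPKM of 193 ± 51.5 (SD, n = 3). It was at 1442, 1607 and 973 CPM in PSS, 417, 427 and 430.1 CPM in HSS and 327, 3286 and 539.5 CPM in Vortex. Every HSS library was below every PSS library, while the Vortex libraries spanned both the lowest and the highest of the 9. With all libraries it did not pass in HSS (-1.66 ± 0.72, adjusted p = 0.206) or Vortex (0.05 ± 0.70, adjusted p = 0.973) against PSS. Without Vortex replicate 2 both comparisons passed, with log2 fold changes of -1.66 ± 0.22 and -1.63 ± 0.25, and the second had changed sign. Over all alternatives the adjusted p ran from 0.000173 to 0.460 in HSS and from 0.000921 to 1.00 in Vortex.

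Plxnb1, the receptor of Sema4d, was at 7.53, 10.9 and 7.01 CPM in PSS, 5.05, 5.21 and 3.95 CPM in HSS and 2.90, 9.81 and 2.57 CPM in Vortex. Each HSS library was below each PSS library, and no comparison passed with all 9 libraries (-0.84 ± 0.49, adjusted p = 0.354 in HSS and -0.73 ± 0.49, adjusted p = 0.360 in Vortex against PSS). Both comparisons with PSS passed when Vortex replicate 2 was left out, at -0.84 in HSS and -1.64 in Vortex. Plxnd1 made up 74.2% ± 1.56 of the summed plexin FPKM in PSS and 33.8% ± 0.529 in HSS, while Plxnb2 made up 14.2% ± 1.21 and 37.9% ± 0.607 and Plxna1 7.34% ± 0.157 and 19.6% ± 0.171 (SD, n = 3). In Vortex replicates 1 and 3 Plxnd1 made up 29.8% and 40.4%, and in replicate 2 83.8%. The FPKM ratio of Sema3e to its receptor Plxnd1 was 0.0185, 0.0175 and 0.0313 in PSS, 0.186, 0.172 and 0.171 in HSS and 0.280, 0.0102 and 0.177 in Vortex, so that all HSS values were above all PSS values.

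Leaving out 1 library ended the HSS calls of Plxna1 (0.0937 to 0.100, without PSS replicate 1 or any HSS library), Plxnb2 (0.0511 to 0.0905, without PSS replicate 1 or 3 or any HSS library) and Plxnc1 (0.0627 to 0.0663, without any HSS library). In Vortex against PSS the call of Plxna1 was lost (0.0552 to 0.0938) without PSS replicate 1, any HSS library or Vortex replicate 3, and that of Plxnb2 (0.0571 to 0.110) without any library other than Vortex replicate 2. The call of Plxnc1 in Vortex against HSS was lost (0.0608 to 0.163) without any PSS or HSS library and without Vortex replicate 3.

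**Figure D4:**
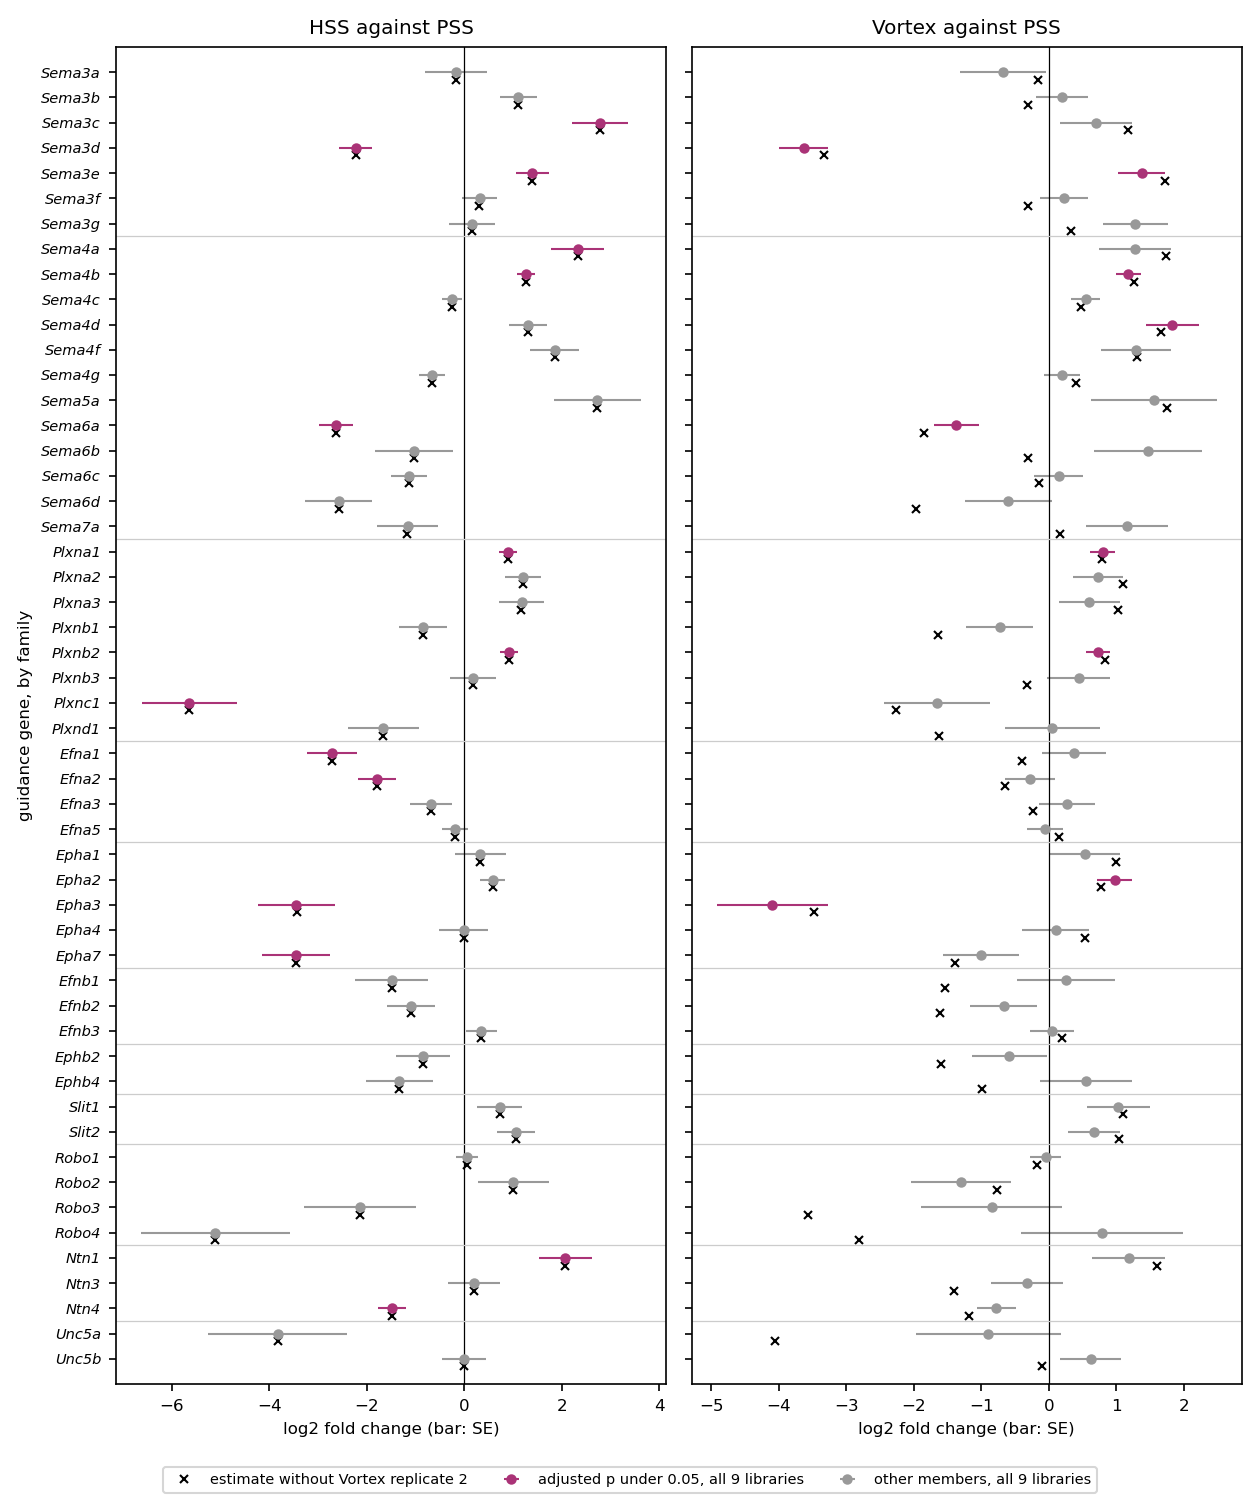
Log2 fold change (point) with its standard error (bar) of the 52 guidance genes in HSS against PSS (left) and Vortex against PSS (right), fitted to all 9 libraries, with crosses for the estimate without Vortex replicate 2. In the left panel crosses and points coincide, and in the right panel the crosses of 12 genes, Efnb1, Ephb4, Plxnd1 and Robo4 among them, lie below 0 while their points lie above it.

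The A-type ephrins, which are tethered to the membrane by a lipid anchor, were lower in HSS for 2 of 4 members. Of all tested genes 7.87% were called there, 3.70% of them lower. Efna1, the ligand of Epha2 and a gene that cytokines induce in endothelium, was at 7.88, 8.51 and 13.5 CPM in PSS, 1.23, 2.07 and 1.26 CPM in HSS and 7.63, 23.7 and 7.55 CPM in Vortex. The HSS libraries were below all others, and the PSS and Vortex libraries overlapped. It was 6.56-fold lower in HSS than in PSS (-2.71 ± 0.52, adjusted p = 0.0161) and 8.52-fold higher in Vortex than in HSS (3.09 ± 0.53, adjusted p = 0.0157), while Vortex and PSS did not differ past the threshold (0.38 ± 0.47, adjusted p = 0.642). Efna2 was lower, at 2.27, 2.87 and 2.65 CPM in PSS, 0.990, 0.673 and 0.579 CPM in HSS and 1.58, 3.10 and 1.73 CPM in Vortex, and fell in HSS against PSS (-1.79 ± 0.39, adjusted p = 0.0271). Against HSS, the Vortex libraries were all higher without passing (1.51 ± 0.39, adjusted p = 0.0513). This difference passed when Vortex replicate 2 was left out, at 1.13. Efna3 and Efna5 passed in no comparison.

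Of the 5 EphA receptors, 2 were lower in HSS, and in Vortex 1 was higher and 1 lower than in PSS. Among all tested genes the shares called were 7.87% and 13.4%. The lower receptors, Epha3 and Epha7, were kept only through their PSS counts, so their calls are not independent of the selection. Epha2, the main EphA receptor of endothelium, was at 89.6, 98.2 and 52.7 CPM in PSS, 119, 122 and 119 CPM in HSS and 147, 198 and 128 CPM in Vortex. Its libraries were ordered PSS, HSS, Vortex without overlap. It was 1.97-fold higher in Vortex than in PSS (0.98 ± 0.26, adjusted p = 0.0394) and did not pass in HSS (0.58 ± 0.26, adjusted p = 0.214) or between Vortex and HSS (0.39 ± 0.26). Epha3, which binds A-type ephrins, was low in PSS at 5.25, 3.65 and 5.07 CPM and nearly absent elsewhere, with 14, 3 and 8 counts in HSS and 5, 0 and 10 in Vortex. It fell in HSS (-3.45 ± 0.78, adjusted p = 0.0308) and in Vortex (-4.10 ± 0.83, adjusted p = 0.0138) against PSS.

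Epha7 had 16, 15 and 19 counts in PSS and 2, 0 and 2 in HSS, and fell in HSS (-3.46 ± 0.69, adjusted p = 0.0187), a difference that rests on few counts. Epha1 and Epha4 did not pass in HSS or Vortex with all libraries. Epha4 was at 19.9, 21.0 and 21.6 CPM in PSS and 21.5, 19.6 and 21.1 CPM in HSS (log2 fold change -0.01 ± 0.50). With Vortex replicate 2 left out, Epha1 passed in Vortex, at 1.00 against PSS and 0.66 against HSS. The HSS call of Efna1 was lost (0.0508 to 0.0906) without PSS replicate 1 or 3 or any HSS library, and its call in Vortex against HSS (0.0786 to 0.101) without any HSS library. In HSS against PSS the calls of Efna2 (0.0801 to 0.143), Epha3 (0.0809 to 0.144) and Epha7 (0.0618 to 0.0910) were lost without any 1 PSS or HSS library. In Vortex against PSS, Epha2 was lost (0.0637 to 0.110) without any PSS or HSS library and Epha3 (0.0535 to 0.0624) without PSS replicate 1 or 3.

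None of the B-type ephrins, which span the membrane, or EphB receptors passed in any comparison with all 9 libraries. Of all tested genes 7.87% were called in HSS and 13.4% in Vortex against PSS, and 7.04% in Vortex against HSS. At an unadjusted p under 0.05 in edgeR, 0 of the 5 B-type ephrins and EphB receptors passed in HSS and 0 in Vortex against PSS. Between Vortex and HSS 2 did. The DESeq2 Wald test called 1 of them, Ephb4 in Vortex against HSS, and limma-voom none. Efnb2, the arterial ephrin, was at 174, 190.1 and 112 CPM in PSS, 77.7, 75.7 and 69.3 CPM in HSS and 44.9, 196 and 58.3 CPM in Vortex. Its receptor Ephb4, the venous marker, was at 203, 219 and 166 CPM in PSS, 79.5, 76.1 and 78.2 CPM in HSS and 61.1, 662 and 137 CPM in Vortex. For both, every HSS library was below every PSS library, and the Vortex libraries held the lowest and the highest of all 9 values. In HSS the log2 fold change was -1.10 ± 0.50, adjusted p = 0.224 for Efnb2 and -1.33 ± 0.69, adjusted p = 0.292 for Ephb4.

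With Vortex replicate 2 set aside, both passed in HSS, at -1.10 and -1.33, and both in Vortex against PSS, at -1.62 and -0.99. Over all alternatives the adjusted p ran from 0.00186 to 0.468 for Efnb2 and from 4.97e-05 to 0.538 for Ephb4 in HSS. Efnb1 and Ephb2 were likewise lower in each HSS than in each PSS library, at -1.49 ± 0.75 and -0.84 ± 0.55, and passed in that comparison only in fits without Vortex replicate 2 or of the PSS and HSS libraries alone. Efnb3 was low, at 1.05 to 1.68 CPM. The FPKM ratio of Efnb2 to Ephb4 was 0.579, 0.588 and 0.457 in PSS, 0.661, 0.673 and 0.5999 in HSS and 0.498, 0.201 and 0.289 in Vortex. The HSS ratios were the highest, though the lowest of them exceeded the highest of PSS by little.

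Among the SLIT ligands, Slit2 was at 181, 193 and 142 CPM in PSS, 363, 353 and 361 CPM in HSS and 411, 111 and 294 CPM in Vortex. HSS was above PSS in every library, as were Vortex replicates 1 and 3, while Vortex replicate 2 was the lowest of the 9. It did not pass in HSS (1.06 ± 0.39, adjusted p = 0.136) or Vortex (0.66 ± 0.39, adjusted p = 0.290) against PSS with all libraries. Without Vortex replicate 2 it passed in both, at 1.06 and 1.03, and over all alternatives its adjusted p in HSS ran from 0.000315 to 0.364. Slit1 stayed at 0.505 to 2.33 CPM with overlapping groups.

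Robo4, the endothelial ROBO receptor, was at 14.3, 16.5 and 9.28 CPM in PSS, 0.236, 0.392 and 0.526 CPM in HSS and 0.505, 65.4 and 3.16 CPM in Vortex. In HSS and in Vortex replicate 1 it was near the detection limit, with 5, 7 and 10 and 8 counts, and in Vortex replicate 2 it was higher than anywhere else. The log2 fold change in HSS against PSS was -5.11 ± 1.53, adjusted p = 0.0782, and the groups did not overlap. In Vortex against PSS it was 0.78 ± 1.20, adjusted p = 0.708, and without Vortex replicate 2 it was -2.82 ± 0.57 and passed, as did HSS against PSS (-5.11 ± 0.59). Over all alternatives the adjusted p ran from 1.54e-05 to 0.278 in HSS and from 0.00387 to 0.848 in Vortex.

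Robo1, the broadly expressed ROBO receptor, was at 120.3, 127 and 74.0 CPM in PSS, 111, 112 and 109.8 CPM in HSS and 88.2, 119.9 and 102 CPM in Vortex. All 3 groups overlapped, and the log2 fold changes of 0.05 ± 0.23 in HSS and -0.05 ± 0.23 in Vortex against PSS were smaller than their errors. Robo2 was at 38.7 to 44.9 CPM in PSS, 81.6 to 91.2 in HSS and 1.43 to 31.3 in Vortex, the lowest in replicate 2. Its groups did not overlap, but it passed in no comparison with all 9 libraries. The log2 fold change was 1.01 ± 0.73 (adjusted p = 0.465) in HSS and -1.31 ± 0.74 (adjusted p = 0.275) in Vortex against PSS. Without Vortex replicate 2 it passed in both, at 1.00 and -0.77, and in Vortex against HSS, at -1.77. Robo3, with at most 33 counts in a library, passed in that fit too, at -2.14 in HSS and -3.57 in Vortex against PSS. The FPKM ratio of Slit2 to Robo4 was 2.63, 2.43 and 3.19 in PSS and 321, 188 and 143 in HSS. In Vortex it was 169.96, 0.354 and 19.4.

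Of the 3 netrins, Ntn1 rose and Ntn4 fell in HSS against PSS, where 7.87% of all tested genes were called. Neither of the kept UNC5 receptors passed in any comparison with all 9 libraries. Ntn4, a netrin of vascular basement membranes, was at 13.6, 13.7 and 12.6 CPM in PSS, 4.86, 4.88 and 4.52 CPM in HSS and 5.55, 11.4 and 6.22 CPM in Vortex. Each HSS library was well below each PSS library, and the Vortex libraries lay between the groups. It was 2.80-fold lower in HSS (-1.49 ± 0.29, adjusted p = 0.0177) and did not pass in Vortex against PSS (-0.78 ± 0.29, adjusted p = 0.105). In Vortex Ntn4 passed when replicate 2 was left out, at -1.18. Ntn1, the classical secreted netrin, was low at 0.758, 0.827 and 0.426 CPM in PSS, 2.78, 2.47 and 3.26 CPM in HSS and 1.70, 0.524 and 2.37 CPM in Vortex, and was 4.21-fold higher in HSS (2.07 ± 0.54, adjusted p = 0.0490). Its Vortex libraries overlapped PSS, with replicate 2 between the PSS values. With that library left out, Ntn1 passed in Vortex against PSS, at 1.60.

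Unc5b, the vascular netrin receptor, was at 98.8, 124 and 61.2 CPM in PSS, 96.1, 94.5 and 93.0 CPM in HSS and 66.3, 259 and 111 CPM in Vortex. The PSS and HSS libraries overlapped, and the log2 fold change in HSS was -0.00 ± 0.45. In Vortex, with replicate 2 the highest of the 9, it was 0.62 ± 0.45, adjusted p = 0.398. Ntn3 passed in Vortex, at -1.41 against PSS, only when Vortex replicate 2 was left out. Unc5a, with at most 17 counts in a library, passed without Vortex replicate 2 in HSS and in Vortex against PSS, at -3.82 and -4.06. The calls of Ntn4 (0.0566 to 0.102) and Ntn1 (0.116 to 0.174) in HSS were lost without any 1 PSS or HSS library.

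Further lists of the same pathways were read from the same fit. Of 20 co-receptors and other ligands, 15 were tested, and in HSS against PSS 2 were higher (Sdc4 and Ryk) and 2 lower (Neo1 and Flrt3), with a median log2 fold change of -0.03, against -0.005 and 7.87% called over all genes. Both higher calls, of Sdc4 (adjusted p = 0.0938 to 0.129) and Ryk (0.0947 to 0.143), were lost without any 1 PSS or HSS library. The neuropilins, co-receptors of class 3 semaphorins, were abundant. Nrp1 was at 224, 243 and 244 CPM in PSS, 163, 159 and 163 CPM in HSS and 101, 126 and 87.4 CPM in Vortex, with PSS above HSS and HSS above Vortex in every library. It fell in Vortex against PSS (-1.18 ± 0.18, adjusted p = 0.00527, also in each fit without 1 library) and did not pass in HSS (-0.55 ± 0.18, adjusted p = 0.0938). In HSS Nrp1 passed when Vortex replicate 2 was left out, at -0.55. Nrp2 was at 328, 354 and 237 CPM in PSS, 392, 397 and 392 CPM in HSS and 455, 314 and 517 CPM in Vortex. It passed in no comparison with all libraries. Without Vortex replicate 2, Nrp2 passed in Vortex against PSS, at 0.66, and Nrp1 in Vortex against HSS, at -0.78. In that fit 5 of the 15 were higher and 4 lower in each comparison with PSS. Between Vortex and HSS 2 were higher and 4 lower in Vortex. Over all genes 29.1% passed in HSS and 36.3% in Vortex against PSS, and 23.9% in Vortex against HSS.

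Neo1, a netrin and RGM receptor, was at 199, 204 and 157 CPM in PSS, 113, 121 and 112 CPM in HSS and 213, 180.2 and 201 CPM in Vortex, lower in HSS than in PSS (-0.69 ± 0.17, adjusted p = 0.0402) and higher in Vortex than in HSS (0.78 ± 0.17, adjusted p = 0.0309). Flrt3, an adhesion molecule that binds UNC5 receptors, was at 164, 163 and 145 CPM in PSS, 56.6, 52.4 and 55.5 CPM in HSS and 57.0, 63.1 and 54.8 CPM in Vortex, and fell in HSS (-1.52 ± 0.16, adjusted p = 0.00158) and in Vortex (-1.43 ± 0.16, adjusted p = 0.00242) against PSS. Its calls held in each fit without 1 library. Against PSS, Vortex had 2 of the 15 higher (Sdc4 and Gpc1) and 4 lower (Nrp1, Flrt1, Flrt2 and Flrt3), against 13.4% of all genes called. Of the calls in this list, that of Sdc4 alone was lost in any fit without 1 library (adjusted p = 0.0702 to 0.0851, without any PSS library). Against HSS, Vortex had 1 higher (Neo1) and 2 lower (Ryk and Flrt2), against 7.04% of all genes called. The calls of Ryk (0.0582 to 0.152) and Flrt2 (0.0993 to 0.104) were lost there without any HSS library, and that of Ryk also without PSS replicate 1 or 2. The calls of Neo1 were lost in HSS against PSS (adjusted p = 0.0506 to 0.183) and in Vortex against HSS (0.0530 to 0.160) without PSS replicate 1 or 2, any HSS library or Vortex replicate 3.

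Of 52 intracellular effectors, 51 were tested. In HSS against PSS 2 were higher (Src and Farp2), 1 was lower (Dpysl3) and 48 did not pass, with a median log2 fold change of -0.04. Over all genes 7.87% were called there, with a median of -0.005. The call of Farp2 was lost (adjusted p = 0.0782 to 0.108) without any 1 PSS or HSS library, while those of Src and Dpysl3 held. Src, a kinase activated below many guidance receptors, was at 75.4, 81.0 and 57.0 CPM in PSS, 195, 204 and 199 CPM in HSS and 148, 111 and 184 CPM in Vortex, with every HSS and Vortex library above every PSS library (1.49 ± 0.23, adjusted p = 0.00615 in HSS and 1.05 ± 0.22, adjusted p = 0.0165 in Vortex). Dpysl3, of the collapsin response mediator family that acts in semaphorin signalling, was at 311, 329 and 251 CPM in PSS, 105, 110.1 and 114 CPM in HSS and 197, 195 and 205 CPM in Vortex. It fell in HSS (-1.44 ± 0.16, adjusted p = 0.00222) and less in Vortex (-0.58 ± 0.16, adjusted p = 0.0456), and Vortex was above HSS (0.86 ± 0.16, adjusted p = 0.0199).

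Between Vortex and PSS, 8 effectors were higher in Vortex (Ngef, Src, Limk1, Srgap3, Arhgap39, Rras, Ssh1 and Rnd1) and 2 lower (Dpysl3 and Dpysl5), with a median of 0.39. Over all genes 13.4% were called there (8.33% higher and 5.03% lower), with a median of 0.11. Rnd1, a small GTPase that binds plexins, was at 10.7, 12.3 and 11.8 CPM in PSS, 18.1, 19.2 and 19.5 CPM in HSS and 102, 43.5 and 44.4 CPM in Vortex, and rose against PSS (2.45 ± 0.34, adjusted p = 0.00446) and HSS (1.74 ± 0.33, adjusted p = 0.0198). In Vortex against HSS 5 were higher (Fyn, Dpysl3, Arhgap39, Rras and Rnd1) and 1 lower (Farp2), against 7.04% of all genes called. The GTPases Rhoa, Rac1 and Cdc42, on which these pathways converge, passed in no comparison. Without Vortex replicate 2 the counts over the 51 were 10 higher and 9 lower in HSS against PSS, 14 and 7 in Vortex against PSS, and 11 and 2 in Vortex against HSS. Over all genes 29.1%, 36.3% and 23.9% passed in these comparisons, so these counts were not far from the background. The effector median was then 0.14 in Vortex against PSS and 0.09 in Vortex against HSS, against 0.01 and 0.03 over all genes. In fits of the compared libraries alone, 0 of the listed genes of both lists passed in either Vortex comparison in edgeR, where 0.488% and 0.438% of all genes did. With 1 library left out, the call of Src in Vortex against PSS was lost without PSS replicate 1 or 3 (adjusted p = 0.0579 to 0.0709). The calls of Ngef (0.0773 to 0.167), Srgap3 (0.0555 to 0.138) and Dpysl5 (0.0517 to 0.142) in Vortex against PSS held only without Vortex replicate 2, and that of Ssh1 (0.0602 to 0.122) only without Vortex replicate 1 or 2. That of Arhgap39 was lost (0.0516 to 0.0661) without PSS replicate 1 or 2 or any HSS library and that of Rras (0.0603) without PSS replicate 1, while Limk1 and Rnd1 passed in each of these fits. Dpysl3 was lost in Vortex against PSS (0.0814 to 0.168) without PSS replicate 1 or 2, any HSS library or Vortex replicate 3, and in Vortex against HSS (0.0565 to 0.129) without PSS replicate 1 or any HSS library. All 6 effector calls in Vortex against HSS, Rnd1 (0.109 to 0.118), Farp2 (0.0763 to 0.0817), Fyn (0.0577 to 0.125), Arhgap39 (0.0505 to 0.192), Rras (0.0542 to 0.187) and Dpysl3, were lost without any HSS library.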

How the data were processed

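Polyadenylated RNA of bEnd.3 cells was measured in 9 libraries, grouped as PSS, HSS and Vortex from their labels. HISAT2, HTSeq 0.13.5 and the build GRCm39 are named in the submitters' processing notes, which give no strand setting here. The authors deposited whole-number read counts per gene without normalization, and FPKM values made by the authors from them by gene length and library total. FPKM served only to compare levels between genes.

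Counts were fitted in R 4.3.3 with edgeR 4.0.16 (filterByExpr, TMM scaling, robust quasi-likelihood F test, all 9 libraries, 1 mean per group). Calls used p-values adjusted by Benjamini and Hochberg's method over the 15774 tested genes, with a threshold of 0.05. Errors beside log2 fold changes are standard errors derived from F. The smallest p of an exact permutation test of 3 against 3 libraries is 0.1, so the p-values given depend on edgeR's shared variance model. Without a known strand setting, reads of overlapping antisense genes cannot be told apart.

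Alternatives were DESeq2 1.42.0 size factors or its Wald test, limma 3.58.1 voom, no filter beyond 1 count, a replicate block, only the libraries compared, and each library left out. Values in each library are given for called guidance genes with at least 5 CPM in the higher group, the 5 smallest p-values of a comparison and 20 genes with a known endothelial role. The genes, the lists and this rule were chosen with earlier results of these data known. Promoter windows came from RefSeq (GRCm38.p6) by symbol, and no coordinates were converted between builds.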

Additional observations from a re-analysis of the deposited data

How the results depend on the processing

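In HSS against PSS, where 15 guidance genes passed, 35 passed in a fit of the compared libraries alone and 3 to 36 with 1 library left out, the most without Vortex replicate 2. In Vortex against PSS, where 9 passed, 1 did so with the compared libraries alone and 2 to 30 with 1 library left out. In Vortex against HSS, where 3 passed, the DESeq2 Wald test called 16 (17.2% of all genes), the compared libraries alone 0, and fits without 1 library 0 to 15. The replicate block gave 10, 6 and 2 calls, against 4.89%, 7.98% and 2.26% of all genes. The correlation of deviations between same-numbered libraries ran from -0.12 to 0.12, so the numbers were not taken to pair them. The other alternatives kept each count within 1.5 times its value. In Vortex against PSS, 12 genes turned from positive to negative log2 fold changes without Vortex replicate 2, 4 of which passed in that fit. Over the fits without 1 library, Efnb1 ran from -1.54 to 0.668, Ephb4 from -0.986 to 0.966, Plxnd1 from -1.63 to 0.452 and Robo4 from -2.82 to 1.32. The cause was not tested. Counts of a few per library, as for Epha7, Epha3, Robo4 and Plxnc1 in HSS, limit the precision of their fold changes.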
